A study of Mus musculus with 16 samples.

Results

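The 10 genes described here carry the signals by which blood vessels form and are held together. They are 3 ligands of the vascular endothelial growth factor (VEGF) family (Vegfa, Vegfb, Vegfc), 2 VEGF receptors (Kdr and Flt1), the angiopoietin receptor Tek with its ligands Angpt1 and Angpt2, and 2 proteins of the junctions between endothelial cells (Pecam1 and Cdh5). They were taken by gene symbol, in a rule that sets no threshold on their values, from tables of 33641 gene symbols, and all 10 passed the filter on low values (a mean of at least 1 TPM) in every comparison. RNA came from the left ventricle of the heart and from subcutaneous white adipose tissue (scWAT) of C57BL/6J mice aged 28 weeks, either wild-type or labelled Adipo-HuR KO, a deletion of the RNA-binding protein HuR in adipocytes. Heart had 4 wild-type libraries (mice A5, A7, A8 and A14) and 4 labelled knockout (A25, A29, A30 and A31), and scWAT had 5 wild-type (A5, A7, A8, A12 and A14) and 3 labelled knockout (A24, A26 and A30). The labels state neither the floxed allele nor the promoter behind the deletion. The comparison within scWAT concerns the tissue of the labelled deletion, and that within heart concerns an organ whose own cells the label does not name as targets.

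VEGF-A made by muscle, fat and other parenchymal cells binds KDR (VEGFR2) on endothelial cells and drives their growth, migration and permeability, while FLT1 (VEGFR1) binds the same ligand tightly and signals weakly, so that it also acts as a trap. VEGF-B binds FLT1 and is abundant in heart muscle, and VEGF-C acts mainly on lymphatic endothelium. ANGPT1, made largely by cells around the vessel, activates the receptor TEK (TIE2) and keeps vessels quiet, and ANGPT2, stored by endothelial cells, can oppose it. PECAM1 and VE-cadherin (Cdh5) hold endothelial cells to each other and are widely used to mark them. HuR, encoded by Elavl1, binds AU-rich stretches in the 3′ untranslated regions (3′UTRs) of messenger RNAs, and Vegfa messenger RNA is among its known targets.

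Values are TPM as deposited, that is, transcript abundance per gene scaled to 1e+06 in each library, so sequencing depth is unknown. Elavl1 stood at 36.2 to 42.9 TPM in the 3 scWAT libraries labelled knockout and at 19.0 to 34.5 TPM in the 5 wild-type ones, so it was not lower where it was to be deleted, and groups are called by their label throughout. Summed markers of the named tissue were present in each library, at 18569 to 34771 TPM for 8 cardiomyocyte genes in heart and 10938 to 17749 TPM for 7 adipocyte genes in scWAT. Heart library A29 went with the wild-type hearts against its label, with Pearson r across genes of 0.978 to 0.99 with them and 0.901 to 0.915 with the other 3 hearts labelled knockout. Whether its label is right cannot be told from these values. It also stood apart from those 3 in markers, with 275 TPM over 9 fibroblast markers where A25, A30 and A31 had 2249, 3391 and 3035 and the wild-type hearts 224 to 345. In scWAT, A26 held 560 TPM of 7 T and B cell markers against 4.18 to 22.9 in the other 7 libraries. Skeletal muscle markers summed to 55.2 to 868 TPM in wild-type scWAT and to 332 in A26, but A24 held 4188 and A30 held 8297. Changes of the 10 genes are therefore given with all libraries and also without A29 in heart or without A26 in scWAT. Because these are bulk samples, fewer cells of a type and less RNA per cell cannot be told apart.

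AU-rich stretches of the kind HuR binds were counted in the longest annotated 3′UTR of each gene, as a description of sequence. The labelled deletion is in adipocytes, and which cells made each message was not tested. Pentamers ATTTA, counted with overlaps on the transcript strand, were found in 9 of the 10 genes, against 65.2% of 21020 genes with an annotated 3′UTR. Vegfa had 9 in 1865 bases, where 3154 genes with a 3′UTR 0.8 to 1.25 times as long had a median of 3. Angpt1 had 7 in 2247 bases (median 4 at that length) and Vegfb had none in 417 bases (median 0). Kdr, with 2, and Cdh5, with 1, were below their medians of 3 and 2, and the other 5 genes were above theirs. The longer AU-rich nonamer TTATTTATT, which contains the pentamer, was present in Vegfa, Flt1 and Pecam1, that is in 3 of 10 against 7.66% of all genes. Among genes with a 3′UTR of similar length it was present in 10.3% for Vegfa, 17.5% for Flt1 and 6.58% for Pecam1. These 3 sites are printed from the GENCODE M21 transcripts of build GRCm38, 5′ to 3′ on the transcript with the nonamer in capitals. The authors' own build is not named in the sources used here. Each site lies in the last exon of a gene on the minus strand.
Vegfa: ttgttatcatTTATTTATTggtgctactg
Flt1: gttataatgcTTATTTATTtgaaacttgg
Pecam1: taatttttctTTATTTATTccccactaaa
The Vegfa site is at chr17:46017166-46017194 (exon 6 of that transcript), the Flt1 site at chr5:147638581-147638609 (exon 13) and the Pecam1 site at chr11:106654394-106654422 (exon 14). The Flt1 transcript with the longest 3′UTR ends after exon 13, short of the complete receptor, and the deposited value per gene does not separate the forms. A match of letters is a description and shows no binding.

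In wild-type scWAT the ligands Vegfa and Vegfb led, at 226 ± 44.3 and 149 ± 23.0 TPM (mean ± SD, n = 5). The junction genes Pecam1 (80.1 ± 15.1) and Cdh5 (79.9 ± 13.6) followed and were not separated, since Pecam1 was above Cdh5 in 2 of 5 libraries. Kdr (26.9 ± 9.34), Flt1 (21.8 ± 5.52) and Tek (16.9 ± 3.33) came next, each above the one after it in 5 of 5 libraries although their ranges overlapped. The angiopoietins Angpt1 (5.41 ± 2.17) and Angpt2 (4.88 ± 2.22) were not separated, and Vegfc was lowest at 3.08 ± 0.595 TPM. Wild-type heart had nearly the same order: Vegfb (154 ± 33.8, n = 4) and Vegfa (127 ± 66.7) overlapped at the top, and then came Cdh5 (47.1 ± 12.2), Pecam1 (45.0 ± 5.64), Kdr (32.4 ± 8.68), Flt1 (26.6 ± 7.38), Tek (13.7 ± 2.98) and Angpt1 (5.74 ± 0.947). Vegfc (2.06 ± 0.820) and Angpt2 (1.35 ± 0.732) were the lowest in heart. The clearest difference in the order was Angpt2, which was not separated from Angpt1 in fat and stood under it in all 4 wild-type hearts.

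As deposited, Vegfa, Angpt2, Pecam1 and Cdh5 were lower in wild-type heart than in wild-type scWAT past the threshold (limma on log2(TPM + 1), Benjamini-Hochberg adjusted p of 0.0104, 0.00323, 0.000812 and 0.00414), and 0 of the 10 were higher. Of 13093 genes tested, 78.5% were called lower in heart and 8.12% higher, with a median log2 change of -1.27. Mitochondrially encoded transcripts took 51.9% to 60.6% of wild-type heart TPM and 6.14% to 14.4% of wild-type scWAT. Relative to that median, all 10 genes were at or above 0 in heart, from 0.01 for Angpt2 to 1.54 for Kdr. After median-of-ratios scaling, 8 of the 10 were called higher in heart and none lower, where 33.1% of all genes were called higher. With mitochondrial genes removed, Vegfb, Kdr, Flt1, Tek and Angpt1 were called higher and none lower, where 20% of all genes were called higher and 48.1% lower. Of the 4 genes that fell as deposited, Vegfa, Pecam1 and Cdh5 thus lay above the median gene under both of these scalings, while Angpt2 was below it (-0.26 and -0.20) without passing. Only the ranking within a tissue and ratios within a library are free of the total.

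**Figure D1:**
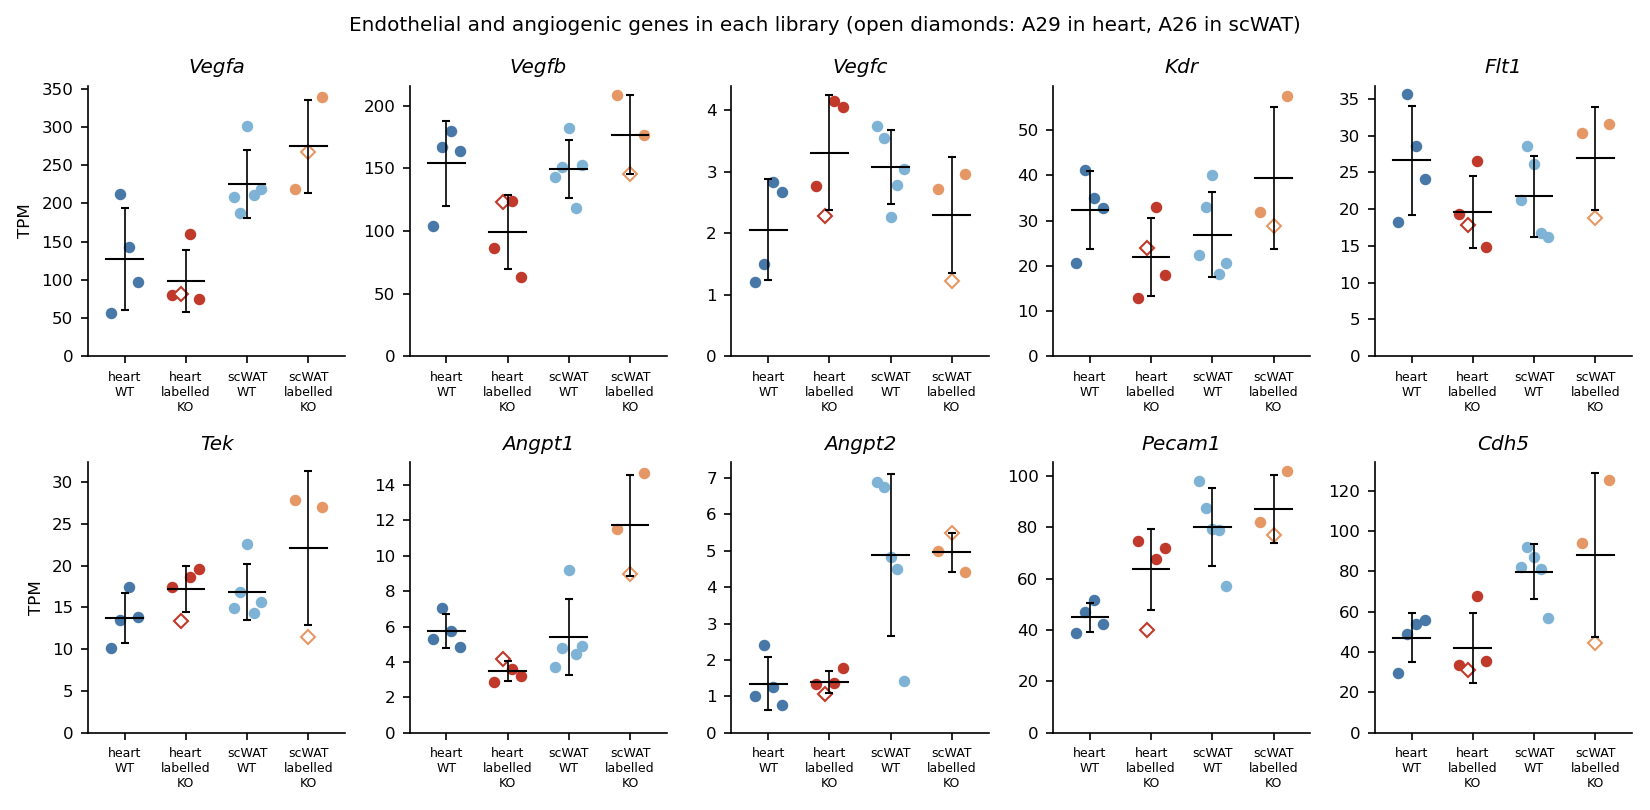
TPM (linear axis from 0) of each of the 10 genes in each library, by tissue and genotype, with the group mean (line) and SD (bar). Open diamonds mark A29 in heart and A26 in scWAT. In heart, the 4 Angpt1 points labelled knockout lie under all 4 wild-type points, and 3 of 4 Pecam1 points labelled knockout lie above every wild-type point while A29 lies among them.

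In heart, Angpt1, Vegfb, Kdr and Flt1 had the lowest values relative to other genes in the libraries labelled knockout, Pecam1 and Tek did not share that direction, and none of the 10 passed the test with all 8 libraries. The test called 6 of 11981 genes, all higher (0.0501%). All genes tested had a median log2 change of 0.26, so changes in heart are given after subtracting that median, and tests used values before subtraction. At an unadjusted p under 0.05 there were 2 of the 10 genes (Vegfb and Angpt1, both lower), against 24.6% of all genes, 20.9% higher and 3.66% lower. The median change of the 10 genes was -0.49 on this relative scale, where the median of all genes is 0 by construction. Without A29 the same test called 4203 of 12081 genes higher (34.8%) and 502 lower (4.16%), with a median shift of 0.39. Of the 10 genes it then called Pecam1 higher and Angpt1 and Vegfb lower. A29 was left out after its values across genes were seen to resemble the wild-type hearts, which by itself widens the difference between groups. Calls and p-values without A29, here and below, are therefore a description and no independent test. For the 7 not called, the relative changes without A29 were -0.59 for Vegfa, 0.24 for Vegfc, -1.03 for Kdr, -0.77 for Flt1, 0.043 for Tek, -0.26 for Angpt2 and -0.47 for Cdh5, all of the same sign as with it.

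Of the ligands, Vegfb gave 104, 167, 180 and 164 TPM in wild-type hearts (A5, A7, A8 and A14, an order kept below) and 86.5, 123, 124 and 63.1 TPM in hearts labelled knockout (A25, A29, A30 and A31). The groups overlapped only through wild-type A5, the lowest of its group. The relative log2 change was -0.91 (SE 0.26, adjusted p = 0.165 by limma), and -1.16 (SE 0.25, adjusted p = 0.0351) without A29. Vegfa varied most within a group, with 56.3, 212, 143 and 96.7 TPM in wild-type and 80.2, 81.3, 160 and 74.4 TPM in hearts labelled knockout. Its groups overlapped over most of their range, and its relative change of -0.53 (SE 0.38, adjusted p = 0.673) was within that spread. Vegfc, the lymphatic ligand, was low throughout, at 1.20, 1.51, 2.83 and 2.68 TPM in wild-type and 2.76, 2.27, 4.15 and 4.04 TPM in labelled knockout hearts. Only A30 and A31 lay above the wild-type range, and its relative change was 0.25 (SE 0.27, adjusted p = 0.257).

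Among the receptors, Kdr was at 20.5, 41.2, 34.9 and 32.9 TPM in wild-type hearts and at 12.9, 24.02, 32.99 and 18.04 TPM in hearts labelled knockout. A25 and A31 lay below the wild-type range and the other 2 within it, and the relative change was -0.83 (SE 0.30, adjusted p = 0.256). Flt1 had 18.2, 35.7, 28.6 and 24.1 TPM in wild-type and 19.3, 17.9, 26.5 and 14.9 TPM in labelled knockout hearts, a relative change of -0.67 (SE 0.25, adjusted p = 0.321). A29 was just under the wild-type range for Flt1, A31 was further below it and the other 2 were within it. Tek, the angiopoietin receptor, went the other way as deposited, with 10.1, 13.5, 17.4 and 13.8 TPM in wild-type and 17.5, 13.3, 18.6 and 19.6 TPM in labelled knockout hearts. Its relative change was 0.06 (SE 0.22, adjusted p = 0.377). A25, A30 and A31 were above the wild-type range, A25 barely so, and A29 was within it.

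The ligand of Tek, Angpt1, was the 1 gene of the 10 whose groups did not overlap in heart with all libraries. It stood at 5.31, 7.06, 5.72 and 4.86 TPM in wild-type hearts and at 2.88, 4.19, 3.61 and 3.22 TPM in hearts labelled knockout, a mean ratio of 0.606. Groups of all tested genes failed to overlap in the lower direction in 0.634% of cases. The relative log2 change was -0.84 (SE 0.22, adjusted p = 0.1503 by limma), and -1.05 (SE 0.19, adjusted p = 0.0226) without A29. Angpt2 was near the filter, at 1.001, 2.41, 1.249 and 0.752 TPM against 1.34, 1.06, 1.36 and 1.78 TPM, and its groups overlapped fully (relative change -0.20, SE 0.25, adjusted p = 0.893).

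The junction genes parted from each other. Pecam1 gave 38.7, 47.1, 51.7 and 42.4 TPM in wild-type hearts and 74.5, 40.1, 67.7 and 72.0 TPM in hearts labelled knockout. A25, A30 and A31 were all above the wild-type hearts, and A29 was within their range. The relative change was 0.20 (SE 0.22, adjusted p = 0.230) with all libraries. Without A29 it was 0.27 (SE 0.15, adjusted p = 0.00609) and the groups did not overlap, but 45.3% of all tested genes then had groups that did not overlap in the higher direction, so this count carries little. Cdh5 stood at 29.4, 48.98, 53.97 and 55.99 TPM in wild-type and 33.5, 31.2, 67.6 and 35.7 TPM in labelled knockout hearts. Its groups overlapped, with A30 the highest of all 8 hearts, and the relative change was -0.45 (SE 0.29, adjusted p = 0.692).

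**Figure D2:**
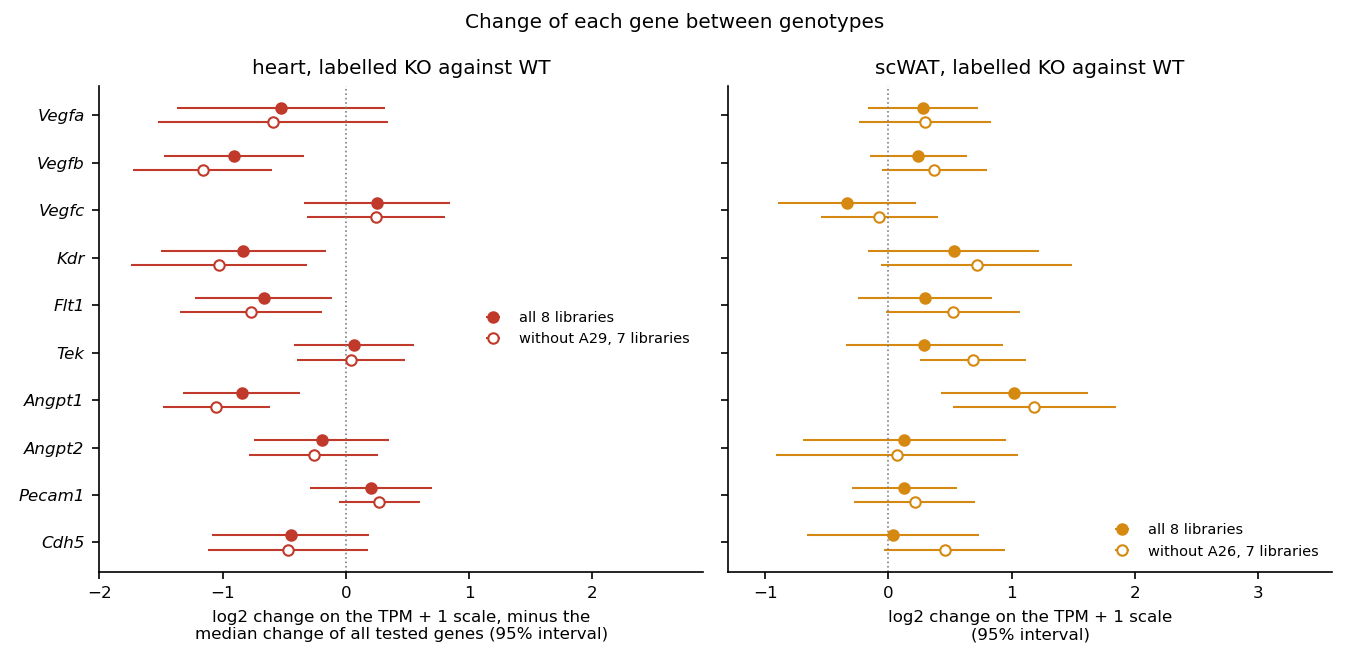
Log2 change (labelled knockout against wild-type, on the TPM + 1 scale) of each gene in heart (left, after subtracting the median of all tested genes) and in scWAT (right), with 95% intervals from the limma fit. Filled points use all 8 libraries of the tissue and open points leave out A29 or A26. Angpt1 is at -0.84 in heart and 1.02 in scWAT, and Vegfb, Kdr and Flt1 also lie left of 0 in heart and right of it in scWAT.

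Ratios within a library do not depend on the TPM total, and 8 of them were compared in each tissue by a 2-sided exact permutation test, adjusted over all 16. They were not adjusted for transcript length, which is greater for Kdr and Flt1 than for Pecam1 and is taken up below. The lowest Kdr/Pecam1 and Flt1/Pecam1 of all hearts were in A25 and A31, and the part of length in these ratios was not tested. Flt1/Pecam1 was 0.470, 0.758, 0.553 and 0.567 in wild-type hearts and 0.259, 0.446, 0.391 and 0.206 in hearts labelled knockout, A29 included. Every heart labelled knockout was below every wild-type heart, and the geometric mean ratio was 1.86-fold lower (exact p = 0.0286, the smallest that 4 against 4 allows, adjusted p = 0.305). Kdr/Pecam1 was 0.530, 0.876, 0.676 and 0.776 in wild-type and 0.173, 0.599, 0.487 and 0.251 in labelled knockout hearts. It overlapped through A29 alone, and was 2.10-fold lower (exact p = 0.0571, adjusted p = 0.305). Cdh5/Pecam1 ran from 0.760 to 1.32 in wild-type hearts and from 0.449 to 0.998 in labelled knockout ones (1.58-fold lower, exact p = 0.0857). Tek/Pecam1 hardly moved, from a geometric mean of 0.301 to 0.276 (exact p = 0.4). Angpt2/Angpt1 had a geometric mean of 0.216 in wild-type and 0.396 in labelled knockout hearts (exact p = 0.0571). None of the 16 ratios passed after adjustment, and 1 had an unadjusted p under 0.05. Without A29, Kdr/Pecam1 was 2.54-fold lower and Flt1/Pecam1 2.10-fold lower, both with no overlap (exact p = 0.0286, the smallest that 4 against 3 allows). Angpt2/Angpt1 was then 2.13-fold higher, also with no overlap (exact p = 0.0571), and Tek/Pecam1 and Cdh5/Pecam1 still overlapped (exact p = 0.171 and 0.143).

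**Figure D3:**
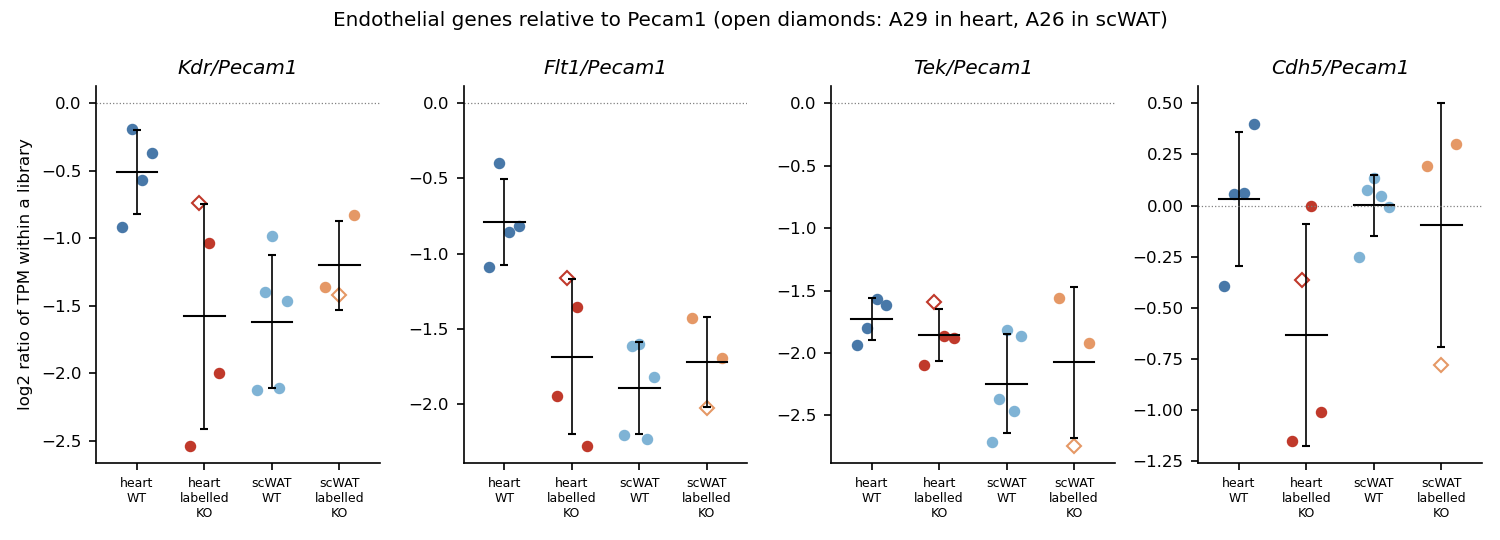
Log2 ratio of the TPM of 4 endothelial genes to that of Pecam1 in the same library, by tissue and genotype, with group mean and SD. Open diamonds mark A29 in heart and A26 in scWAT. Flt1/Pecam1 separates the heart genotypes with A29 included, and Tek/Pecam1 does not. The ratios are not adjusted for transcript length.

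A property of the libraries moved with these values. In each heart library, the level of 7441 genes, each centred on its mean over the hearts, was set against the median annotated length of their transcripts. The Spearman coefficient was 0.03, 0.28, 0.20 and 0.23 in wild-type hearts A5, A7, A8 and A14, and -0.28, -0.09, 0.11 and -0.24 in hearts A25, A29, A30 and A31 labelled knockout. Long transcripts were thus relatively low in A25 and A31, and high in 3 of the 4 wild-type hearts. The median annotated transcript of Kdr has 5924 bases, that of Flt1 6594, Tek 4549, Angpt1 4260, Angpt2 3560, Pecam1 3120, Cdh5 2170, Vegfc 1502, Vegfb 1220 and Vegfa 1143. These medians run over all annotated protein-coding transcripts of a gene, short ones included. For Vegfa the median is below the 1865 bases of its longest 3′UTR alone, so its place at the short end is uncertain. The 2 libraries with the lowest coefficients, A25 and A31, had the lowest Kdr and Angpt1, and A7 with the highest coefficient had the highest of both. Tek, longer than Angpt1, was highest in A31, and Vegfb, which is short, was lowest in A31 and A25. The coefficients of A25, A29 and A31 were below those of every wild-type heart. The part of length therefore cannot be told apart from that of the label. The same coefficient for GC content was -0.12, 0.16, 0.34 and 0.21 in wild-type hearts A5, A7, A8 and A14. In A25, A29, A30 and A31 it was -0.13, -0.05, 0.10 and -0.29. Vegfb has the highest GC content of the 10 (62.3%), was lowest in A31 and A25 and highest in A8, and the part of GC content was not tested. With the length coefficient as a term in the fit, the relative changes of Angpt1, Vegfb, Kdr and Flt1 were -0.97, -0.53, -0.16 and -0.39, none past the threshold, and Pecam1 turned to -0.20 and Tek to -0.15. With that term and without A29, 64.6% of all genes were called higher and 1.51% lower. Of the 10, Vegfa, Vegfc, Pecam1 and Cdh5 were then called higher before subtraction of the median, with Pecam1 below the median gene at -0.13. Angpt1 (-1.28, adjusted p = 0.128) and Vegfb (-0.88, adjusted p = 0.860) were no longer called.

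**Figure D4:**
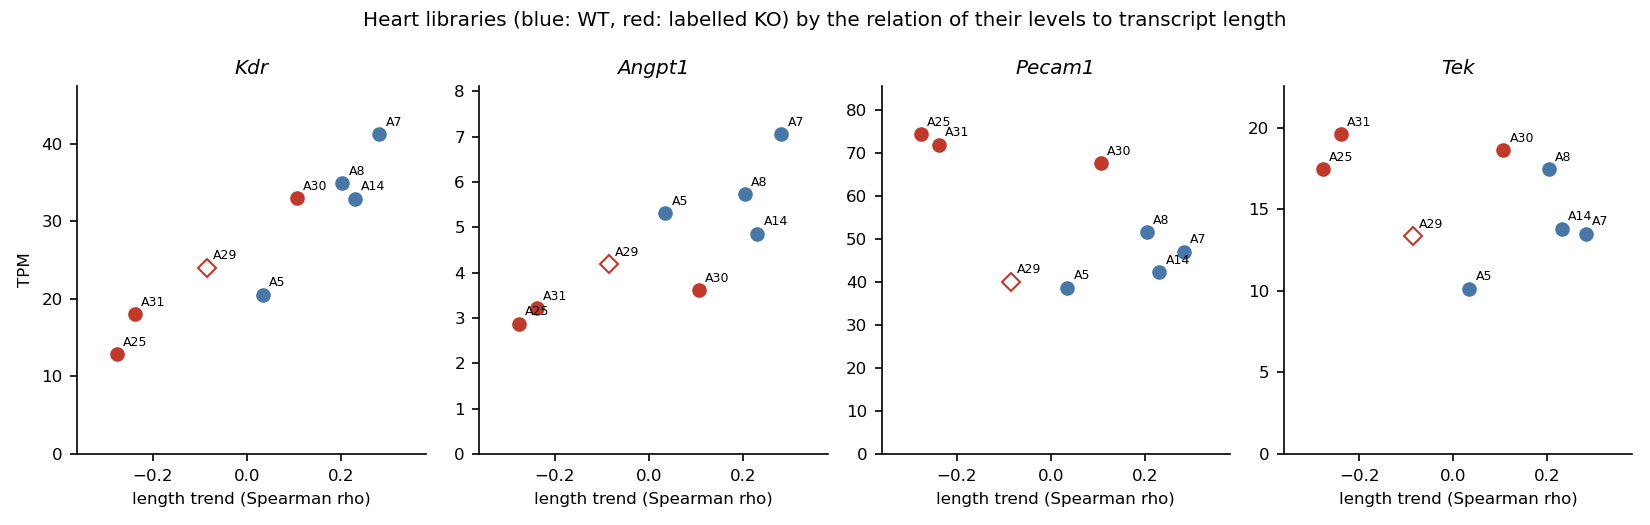
TPM (linear axis from 0) of Kdr, Angpt1, Pecam1 and Tek in each heart library against the length trend of that library, the Spearman coefficient between centred level and transcript length over 7441 genes. Blue points are wild-type, red points labelled knockout and the open diamond is A29. Kdr is lowest in A25 and A31, the libraries with the most negative trend.

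Scaling changed some of these calls and not others. Without A29 and with median-of-ratios scaling, Vegfb (-1.28), Kdr (-1.13), Angpt1 (-1.07), Flt1 (-0.87) and Cdh5 (-0.58) were called lower, where 20.9% of 11974 genes were called lower and 19.5% higher, and Pecam1 no longer passed (0.16, adjusted p = 0.510). Without A29 and with mitochondrial genes removed, Vegfb, Kdr, Flt1 and Angpt1 were called lower and Pecam1 higher, against 8.9% of all genes lower and 28.7% higher. With array weights, a fit over all 8 hearts that gives less weight to libraries far from their group, 8 of the 10 were called. Tek and Pecam1 were then higher and Vegfa, Vegfb, Kdr, Flt1, Angpt1 and Cdh5 lower, where 43.1% of all genes were called higher and 22.7% lower. The weights come from the same values, in which A29 lies far from its group. The weighted fit is therefore not independent of leaving A29 out. Angpt1, Vegfb, Kdr and Flt1 lay below the median gene in every alternative run for heart, between -1.28 and -0.49 for Angpt1, -1.28 and -0.53 for Vegfb, -1.48 and -0.16 for Kdr, and -0.87 and -0.39 for Flt1. The signs of Vegfa, Tek, Angpt2, Pecam1 and Cdh5 turned in at least 1 alternative.

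The wider pathways were followed in heart with lists of genes that do not hold the 10. With all 8 libraries, none of the genes of the 6 pathway lists or the endothelial, lymphatic and mural marker lists passed. As above, each adjusted p tests the change before subtraction of the median, while the relative changes printed are after it. The counts without A29 that follow stand beside 34.8% of all genes called higher and 4.16% called lower in the same fit, so a list with about 1 gene in 3 called higher is at the background. Without A29, 1 of 6 VEGF ligands, receptors and co-receptors was higher (16.7%), the lymphatic ligand Vegfd (relative change 0.67, adjusted p = 0.0178). Hearts labelled knockout had 2.75, 6.18 and 5.03 TPM of it, and 0.642 TPM in A29, where wild-type hearts had 0.788 to 2.58 TPM. The co-receptor Nrp1 stood at -0.11 (adjusted p = 0.237). Of 5 tested genes of the angiopoietin and BMP pathways, only Dok2, an adaptor that docks on TEK, was higher (0.50, adjusted p = 0.0352) and Acvrl1 was not called. Tie1, the orphan partner of TEK, was at -0.53 (adjusted p = 0.718).

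Among 17 sprouting and tip cell genes, Esm1, Cxcr4 and Mcam were higher without A29 (17.6%, under the 34.8% of all genes) and none was lower. Esm1, a proteoglycan secreted by tip cells, ran from 0.291 to 0.638 TPM in wild-type hearts, and the 3 labelled knockout held 2.56, 1.71 and 3.18 TPM (relative change 0.91, SE 0.19, adjusted p = 0.000666). Its groups did not overlap even with A29 at 0.656 TPM. Of 7 angiogenesis inhibitors, 3 were higher and none lower without A29 (42.9%, near the share of all genes). Serpinf1, the secreted factor PEDF, reached 168, 177 and 155 TPM in these 3 hearts, while A29 (13.5 TPM) was just under the wild-type range of 13.7 to 20.6 TPM. Thbs1, thrombospondin 1, had a relative change of 2.66 (SE 0.35, adjusted p = 0.000186). Of 14 tested genes of the hypoxia response, which includes the inducers of Vegfa, 6 (42.9%) were higher and 1 (Egln1, an oxygen sensor) lower, among them the glycolytic enzymes Pgk1 (0.45) and Ldha (0.29). With all 8 hearts the list did not move as 1 group, with 7 genes above and 7 below the median gene. Hif1a ran from 11.3 to 38.3 TPM in hearts labelled knockout and from 9.22 to 16.7 TPM in wild-type. Epas1 differed the other way, at 22.1 to 58.8 TPM against 33.5 to 81.1 TPM.

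Endothelial markers did not move as 1 group. Without A29, 7 of 21 were higher and none lower, a share of 33.3% beside the 34.8% of all genes called higher, and the median of the 21 was -0.13 relative to all genes. Plvap, the protein of endothelial diaphragms, led, with 10.2, 16.1 and 13.2 TPM in the 3 hearts labelled knockout against 1.49 to 2.89 TPM in wild-type, and A29 held 1.67 TPM (relative change 1.87, SE 0.23, adjusted p = 0.000107). Ecscr, an endothelial surface protein, stood at 7.08 to 12.5 TPM in wild-type and at 25.2, 25.98 and 32.04 TPM in the same 3 hearts. Of 9 endocardial and artery or vein markers, 5 were higher, among them Npr3 (0.87) and Cytl1 (0.83). Lymphatic markers gave 3 of 7 higher, with Pdpn at 2.17 and Lyve1 at 0.64, and Pdpn is also made by fibroblasts. Of 10 pericyte and smooth muscle markers, 4 were higher and 1 lower. The lower one, Abcc9, a potassium channel subunit of pericytes that heart muscle also makes, had 32.3 to 59.1 TPM in wild-type hearts and 14.02 to 35.1 TPM in labelled knockout ones.

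Other cell types moved with these values. With all 8 hearts, none of 9 fibroblast and 7 macrophage markers passed, with median relative changes of 1.28 and 1.24. Without A29 the medians were 1.67 and 1.71. A29 was set apart by these same markers, so their calls without it are a description and no test. Of 8 cardiomyocyte markers, 3 were lower and none higher without A29, where 4.16% of all genes were lower. The summed level of the macrophage markers was 340, 379 and 389 TPM in those 3 hearts, 51.8 TPM in A29 and 57.2 to 90.3 TPM in the wild-type group. Summed cardiomyocyte markers were 24948 to 34771 TPM in wild-type hearts and 18569 to 31340 in labelled knockout ones, the highest of these in A29. Pecam1 is also present on leukocytes and platelets, and Vegfb is made by heart muscle. The part of these cells in the change of Pecam1, Vegfb or any other of the 10 genes was not tested. Nor was it tested for the genes of the pathway and vascular marker lists, such as Dok2 and Cxcr4.

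**Figure D5:**
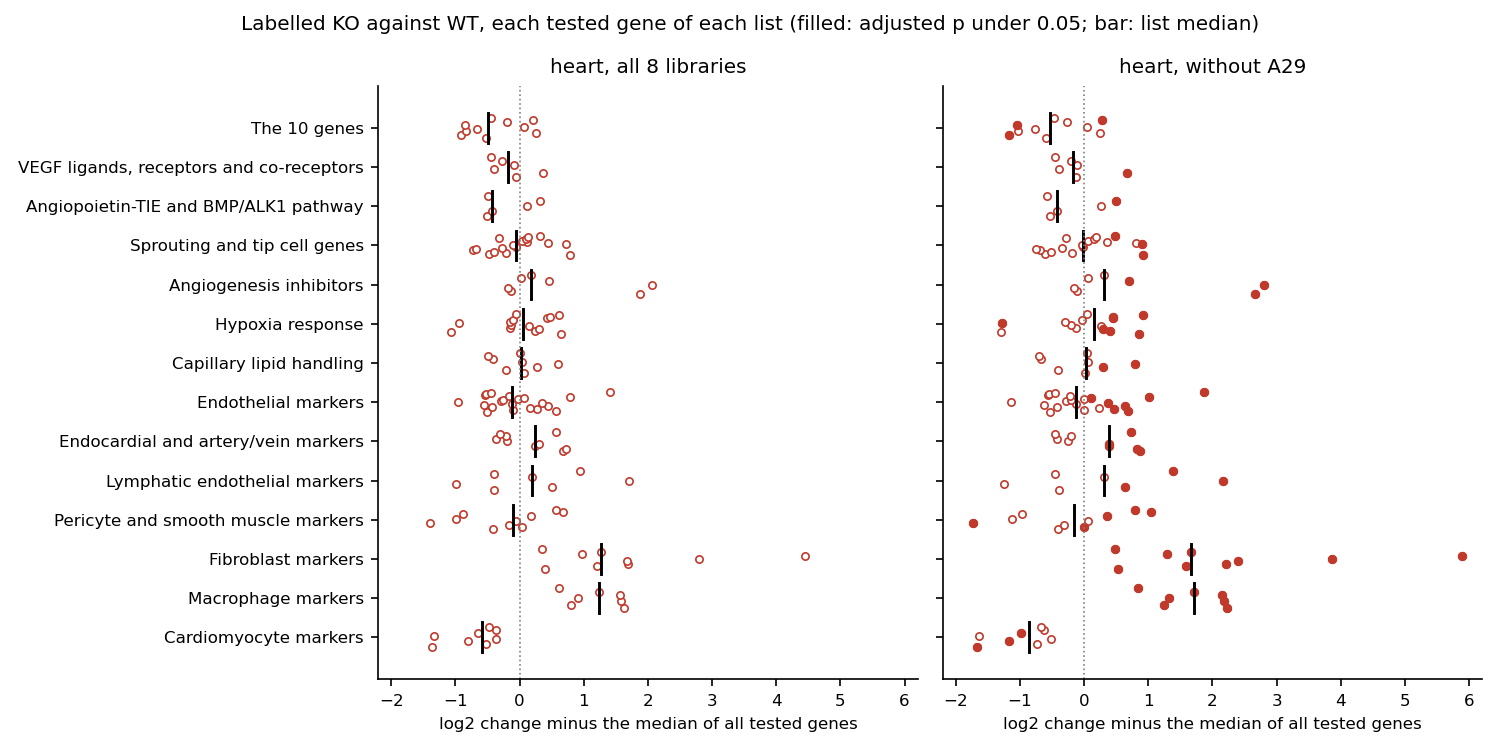
Relative log2 change in heart (labelled knockout against wild-type) of each tested gene of the 10 and of 13 lists, with all 8 libraries (left) and without A29 (right). Filled points have an adjusted p under 0.05 and bars are list medians. On the right, the 9 fibroblast and 7 macrophage markers are all filled, while endothelial markers lie on both sides of 0. A29 was set apart by the fibroblast markers.

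In scWAT, Angpt1 was the gene of the 10 with the largest difference, higher in the libraries labelled knockout by 2.17-fold in the means, and none of the 10 passed the test. It gave 3.69, 4.81, 9.20, 4.44 and 4.90 TPM in wild-type scWAT (A5, A7, A8, A12 and A14) and 11.5, 8.96 and 14.7 TPM in those labelled knockout (A24, A26 and A30). The groups overlapped only through wild-type A8 and A26. The log2 change was 1.02 (SE 0.26, adjusted p = 0.216 by limma), and 1.18 (SE 0.29, adjusted p = 0.194) without A26. The test called 3 of 13682 genes (0.0219%), and without A26 it called 130 of 13430 (0.968%), none of the 10 among them. At an unadjusted p under 0.05 there was 1 of the 10 genes, Angpt1, against 15.6% of all genes. The median of all genes was 0.03 and was not subtracted in this tissue. The median over the 10 genes was 0.26.

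The receptors of scWAT were spread widely in the group labelled knockout. Kdr was at 22.5, 33.1, 40.2, 18.3 and 20.6 TPM in wild-type and at 32.0, 28.7 and 57.6 TPM in labelled knockout libraries (log2 change 0.53, SE 0.31, adjusted p = 0.407). A30 had the highest value of all 8. Flt1, given in the same order, had 30.4, 18.8 and 31.5 TPM against 16.1 to 28.6 TPM in wild-type (0.29, SE 0.24, adjusted p = 0.543). Tek had 27.8, 11.5 and 27.0 TPM against 14.3 to 22.6 TPM (0.29, SE 0.28, adjusted p = 0.611). For both, A24 and A30 were above all wild-type libraries, while A26 was within their range for Flt1 and below it for Tek. Cdh5 was like Tek, with 94.0, 44.7 and 126 TPM against 56.7 to 92.0 TPM in wild-type (0.036, SE 0.31, adjusted p = 0.960). Without A26, Flt1 (0.52), Tek (0.69), Angpt1 (1.18) and Cdh5 (0.46) did not overlap with wild-type, at adjusted p-values from 0.194 to 0.520 by limma. That is 4 of 10, where 9.72% of all genes were higher with no overlap. A26 was set apart after its values were seen, and it was the lowest of its group for these 4 genes. All counts and p-values without A26 are therefore a description and no independent test. A24 and A30 are the libraries high in skeletal muscle markers, all 10 of which were higher there than in every wild-type library, and the part of muscle vessels in these 4 genes was not tested.

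The remaining 5 genes did not pass in scWAT, and their groups overlapped. Vegfa was at 187 to 302 TPM in wild-type and at 219, 267 and 340 TPM in labelled knockout libraries (0.28, SE 0.20, adjusted p = 0.478). Vegfb was at 118 to 182 against 208, 146 and 177 TPM (0.24, SE 0.17, adjusted p = 0.490), and Pecam1 at 57.0 to 97.9 against 82.0, 76.9 and 102 TPM (0.13, SE 0.19, adjusted p = 0.740). Vegfc was at 2.26 to 3.74 against 2.71, 1.22 and 2.96 TPM (-0.34, SE 0.25), and its change was -0.074 (SE 0.21) without A26. Angpt2 ran from 1.41 TPM in wild-type A14 to 6.90 in A5, against 4.41 to 5.48 TPM in labelled knockout libraries (0.13, SE 0.37). Without A26, Kdr was at 0.72, Vegfa at 0.29, Vegfb at 0.37, Pecam1 at 0.21 and Angpt2 at 0.067, none past the threshold. None of the 8 ratios in scWAT had an unadjusted exact p under 0.05, with the lowest at 0.196 for Kdr/Pecam1, where 3 against 5 could give 0.0179.

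The 6 pathway lists and 4 vascular marker lists held no gene past the threshold in scWAT, with or without A26. The lowest p in each list fell on Vegfd (-0.67, adjusted p = 0.382), the transcription factor Foxo1 (0.49, adjusted p = 0.328), the basement membrane collagen Col4a2 (-1.32, adjusted p = 0.253), Col18a1, the source of endostatin (-1.17, adjusted p = 0.229), Pfkfb3, a glycolytic regulator (-0.62, adjusted p = 0.255), and the caveolar protein Cav1 (-0.86, adjusted p = 0.236). Endothelial markers had a median of 0.06 over 21 genes, and 0.32 without A26, with Fli1, an ETS factor, at 0.47 (adjusted p = 0.251). Summed, they gave 746, 474 and 780 TPM in the libraries labelled knockout and 507 to 767 TPM in wild-type ones.

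Angpt1 differed in opposite directions in the tissues, lower in heart and higher in fat in the libraries labelled knockout. The interaction of tissue and genotype over all 16 libraries was -1.84 relative to the median gene (SE 0.33). The test used the value before subtraction, -1.61, and gave an adjusted p of 0.0864 by limma, which does not pass. This test called 7 of 11536 genes (0.0607%), and 4 of the 10 genes had an unadjusted p under 0.05, Vegfb, Vegfc, Kdr and Angpt1, against 20.5% of all genes. The Angpt1 difference passed with median-of-ratios scaling (-1.83, adjusted p = 0.0452) and with mitochondrial genes removed (-1.88, adjusted p = 0.0394), where 0.598% and 0.105% of genes were called lower in heart relative to fat. It also passed without wild-type scWAT A8 (-2.01, adjusted p = 0.0176), without scWAT A26 (-1.999, adjusted p = 0.0153) and without heart A29 (-2.05, adjusted p = 0.00225), and leaving out any of the other 13 libraries gave adjusted p-values from 0.0901 to 0.213. Without A29, Vegfb passed too (-1.38, adjusted p = 0.0328), where 2.27% of genes were called in that direction. For Kdr the difference was -1.34 (SE 0.45, adjusted p = 0.189) and for Flt1 -0.94 (SE 0.36, adjusted p = 0.278). Mouse A30, the 1 mouse labelled knockout that gave both tissues, had the highest Angpt1 of all scWAT libraries (14.7 TPM) and 3.61 TPM in heart, under every wild-type heart. The scWAT library of A30 also had the most skeletal muscle markers (8297 TPM, against 55.2 to 868 in wild-type scWAT). Its cardiomyocyte markers summed to 117 TPM, against 3.55 to 6.33 in wild-type scWAT, and the part of muscle in its Angpt1 was not tested.

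The genes whose pattern was most like that of Pecam1 over the 16 libraries, each tissue centred on its mean, were Ccdc43, Prkar1b and Ifngr1, with Pearson r of 0.96, 0.95 and 0.95 among 10692 genes. Those most like Vegfa were Als2cl, Dll1 and Notch1, with r of 0.93, 0.91 and 0.90. For Notch1, a receptor of sprouting endothelium, r was 0.98 over the 8 hearts and 0.40 over the 8 scWAT libraries. The libraries behind each coefficient share their total and their length trend, so these are descriptions.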

How the data were processed

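Total RNA was extracted with Trizol from frozen tissue and made into Illumina TruSeq libraries, per the labels' protocols. The authors deposited TPM per gene symbol for each library, per the file headers. The sources used here name no aligner, quantifier or genome build for these values. TPM keeps no depth, so no counting interval can be given, and each library of a tissue comes from another mouse.

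Genes averaging 1 TPM or more were tested on log2(TPM + 1), a scale that understates the change of low genes, with limma 3.58.1 in R 4.3.3 (lmFit, eBayes with trend, 2-sided, Benjamini-Hochberg threshold 0.05), in each tissue and as an interaction over 16 libraries. Changes are given after subtracting the median of all tested genes where it exceeded 0.1, and all limma p-values test the change before subtraction. Ratios were compared by exact permutation. The limma, permutation and adjustment steps were tested on simulated data. No 2 libraries held identical values. The 3′UTRs were those of GENCODE M21 (GRCm38).

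Beside the 10 genes and Elavl1, the named genes were the 2 of each pathway or vascular marker list with the smallest p in heart and the 1 with the smallest in scWAT, and the 3 most like Pecam1 and Vegfa. Tie1, Mcam, Egln1, Hif1a, Epas1 and Ccl21a were named after their values were seen. The 10 genes and the lists were chosen with earlier results of these data known. The numbers of 5 mice occur in both tissues and pair their libraries, since each number is 1 mouse. Across genes, the consensus correlation within mice was -0.04 in the interaction fit and -0.02 in the fit of wild-type tissues. Alternatives were pseudocounts of 0.25 and 5, other filters, other scalings, array weights, the length trend as a term, the style of the file names, each library left out and the mouse as a block. Fits that combine a scaling or the length trend with leaving out A29, and the length trend itself, were added after seeing the data.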

Additional observations from a re-analysis of the deposited data

Results flagged for a closer look

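In 4 of 30 groups of 4 or 5 libraries, 1 library stood apart from the rest by Dixon's gap test on the log2(TPM + 1) scale, where chance gives about 1 in 20. Pecam1 in heart A29 was at 40.1 TPM, under the other 3 hearts labelled knockout at 67.7 to 74.5 TPM. Vegfa in heart A30 was at 160 TPM, above the other 3 at 74.4 to 81.3 TPM. Vegfb in wild-type heart A5 was at 104 TPM, under the other 3 at 164 to 180 TPM. Cdh5 in wild-type scWAT A14 was at 56.7 TPM, under the other 4 at 81.4 to 92.0 TPM. For none of the 10 genes did the interaction of tissue and genotype pass the threshold with all libraries as deposited.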

How the results depend on the processing

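The mouse as a replicate block, which pairs the tissues of 5 mice, left 7 genes and 0 of the 10 in the interaction and 11320 genes and 4 of the 10 between wild-type tissues (11351 and 4 with 4 mice as a fixed term), and it changed no call of the 10 genes.

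In heart, where 6 genes and 0 of the 10 were called, no filter gave 11 genes, a filter of 5 TPM 2, the length trend as a term 2, and array weights 7885 genes and 8 of the 10 (Tek and Pecam1 higher, 6 lower). Without A29, median-of-ratios scaling gave 4832 genes and 5 of the 10, removal of mitochondrial genes 4982 and 5, and the length trend 7991 and 4 (all higher, with the lower calls of Angpt1 and Vegfb lost). Leaving out 1 library gave from 3 genes to 4705 (without A29) and up to 3 of the 10. In scWAT, where 3 genes were called, no filter gave 6, a 5 TPM minimum 1, median-of-ratios scaling 5, array weights 80, libraries with no genotype in the file name 0 (limma, with 0 of the 10), and leaving out 1 library from 10 to 130 where it moved (130 without A26, 75 without A30). For the interaction, with 7 genes and 0 of the 10, a pseudocount of 5 gave 11 genes, no filter 11, a 5 TPM minimum 3, median-of-ratios scaling 272 and 1 of the 10, removal of mitochondrial genes 17 and 1, median-of-ratios scaling without heart A29 2614 and 4, and leaving out 1 library 12 to 2863 genes (2863 without heart A29) and 1 to 2 of the 10. Between wild-type tissues, median-of-ratios scaling called 8 of the 10 where 4 were called as deposited.

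Changes of sign in heart, relative to the median gene, were few outside the length trend. A pseudocount of 5 gave 0.0013 for Nrp1, and no filter, where the median of all genes was under 0.1 and was not subtracted, gave 0.060 for Angpt2, 0.17 for Nrp1 and 0.046 for Elavl1. With the length trend as a term, Vegfa was at 0.30, Tek at -0.15, Pecam1 at -0.20, Cdh5 at 0.032, Ldha at -0.13, Fabp4 at -0.069, Cytl1 at -0.014, Lyve1 at -0.098 and Elavl1 at 0.12. With that term and without A29, Vegfa was at 0.24, Tek at -0.21, Pecam1 at -0.13, Cdh5 at 0.021, Ldha at -0.18, Fabp4 at -0.067 and Elavl1 at 0.042. Tek was at -0.049 with median-of-ratios scaling without A29, and Acvrl1 ran from -0.045 (without A30) to 0.26 where 1 library was left out. In scWAT, libraries with no genotype in the file name gave -0.087 for Angpt2 and -0.21 for Cdh5. Leaving out 1 library gave -0.16 (without A14) to 0.26 for Angpt2 and -0.28 (without A30) to 0.46 (without A26) for Cdh5. In the interaction, Tek was at 0.029 with no filter (also without subtraction) and ran from -0.59 (without scWAT A26) to 0.0018 (without scWAT A24). Between wild-type tissues, Angpt2 was at -0.16 with a pseudocount of 0.25, -0.26 with median-of-ratios scaling, -0.20 without mitochondrial genes, -0.84 with no filter and -0.27 to 0.16 where 1 library was left out. Vegfa was at -0.12 with a pseudocount of 5 and -0.55 with no filter, and no filter also gave -0.029 for Vegfc, -0.39 for Pecam1 and -0.36 for Cdh5. Of the log2 ratios, leaving out 1 library gave -0.12 to 0.32 for Vegfa/Vegfb in scWAT, -0.085 to 0.51 for Tek/Pecam1 in scWAT, -0.29 to 0.25 for Cdh5/Pecam1 in scWAT and -0.061 to 0.28 for Flt1/Kdr in heart. The cause of these changes was not tested. Adding 1 TPM to both genes of a ratio changed no direction. Of 80 rescaled group levels of the 10 genes, 53 moved by more than 1 SD. TPM keeps no depth, so the precision of low genes such as Angpt2 and Vegfc in heart is unknown, and labels of 3 to 5 libraries a group limit every test.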

Other observations

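Several vascular genes of scWAT that the tests did not call had large differences in level between libraries. Npr3, the clearance receptor of natriuretic peptides, had 106, 76.5 and 298 TPM in A24, A26 and A30, against 281 to 582 TPM in wild-type (log2 change -1.73, SE 0.43, adjusted p = 0.216). Acta2, the actin of smooth muscle, had 47.2, 31.7 and 157 TPM against 129 to 359 TPM (-1.84, SE 0.50, adjusted p = 0.216). Pdpn, a lymphatic and fibroblast surface protein, went the other way, at 12.9, 14.5 and 16.7 TPM against 3.74 to 10.4 TPM (1.09, SE 0.26, adjusted p = 0.216). The groups did not overlap for Pdpn and overlapped for Npr3 and Acta2 through A30. Lymphatic markers summed to 1180 TPM in A26, the library with T and B cell markers, and to 13.4 to 70.7 TPM in the other 7. A single member, the chemokine Ccl21a, held 1100 of these TPM in A26 and 0.437 to 23.0 TPM in the other 7.

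In heart, Fabp5 and Fabp4, carriers of fatty acids that capillaries also make, were the genes of capillary lipid handling with the lowest p. Fabp5 had 54.2, 58.2 and 70.5 TPM in 3 of the hearts labelled knockout, against 21.9 to 31.2 TPM in wild-type, and A29 had 23.1 TPM. Without A29 both were called higher among 8 tested genes of the list (relative changes 0.80 and 0.29), which is 25% beside 34.8% of all genes, and none was lower.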
